A study of Homo sapiens with 24 samples.

Results

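The genes described here are the insulin-like growth factor (IGF) binding proteins IGFBP2, IGFBP3, IGFBP4, IGFBP5, IGFBP6 and IGFBP7, the IGF and insulin receptors IGF1R and INSR, and the receptor adaptors IRS1 and IRS2. They were taken by gene symbol from the probe annotation of the array platform. All 10 genes had a probe, 12 probes in all, of which 11 probes of 9 genes stood above background on at least 3 arrays and were tested, out of 25215 such probes and 13344 such genes in the whole series. The samples were PC3 and LNCaP, established human prostate cancer cell lines, and the study asked how their transcripts differ after Siomycin A, a thiopeptide antibiotic used as an inhibitor of the proteasome and of FOXM1, a transcription factor of dividing cells. The 8 groups were PC3 treated with Siomycin A for 24 h, PC3 treated with DMSO for 24 h, the same pair at 48 h, and the same 4 groups of LNCaP. Each group held 3 Illumina bead arrays of total RNA, 24 arrays in all. DMSO is the solvent of the drug and was the control. The sample titles name a dose of 5 microM, whereas the treatment protocol names 0.5 microM. Both lines grew in medium with serum, but the growth protocol names a different medium for each line, so that line and medium cannot be told apart. The labels do not say that the 3 arrays of a group came from separate cultures. The p-values therefore rest on array-to-array spread, which may be technical only.

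IGF1 and IGF2 are growth factors that bind the receptor tyrosine kinase IGF1R, while insulin binds the closely related INSR. Activated receptors phosphorylate IRS1 and IRS2, docking proteins that recruit phosphoinositide 3-kinase and so switch on AKT and mTOR. The IGFBPs are secreted proteins that hold IGFs outside the cell, either keeping them from the receptor or delivering them to it when a protease cuts the binding protein. IGFBP7 binds IGFs weakly. FOXO transcription factors, which AKT keeps out of the nucleus, are known activators of INSR and IRS2 transcription.

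Arrays had a mean intensity of 314.4 to 498.8 and a background centre of 97.67 to 116.4, and 17010 to 20101 probes stood above background. The dimmest array was replicate 3 of PC3 treated with Siomycin A for 48 h. Of the 24 arrays, 23 correlated best with an array of their own group, and the exception was replicate 1 of LNCaP with DMSO for 24 h. The line labels were checked against marker genes. All 10 PC3 markers (VIM, CAV1, CD44 and others) were higher in every PC3 group than in every LNCaP group, and 7 of 8 LNCaP markers, KLK3 and TMPRSS2 among them, were higher in every LNCaP group. HOXB13 was the exception. These are bulk cultures, in which fewer cells of a kind and less RNA per cell cannot be told apart.

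Promoter windows were available for 9 of the 10 genes. Each covers 300 bases around the annotated start, of which the last 50 follow it, taken from RefSeq on GRCh38.p14. The windows below belong to IGFBP5, IGFBP4, IGFBP6 and IRS2, the genes the results turn on. IGFBP5 and IGFBP4 fell in PC3 at both times, and IGFBP6 rose in PC3 at both times. IRS2 was higher than with DMSO in both lines at 48 h. Capitals mark matches on either strand to the TATA box TATAAA, to the CCAAT box, spelled as its name, to the GC box GGGCGG, to the forkhead motif GTAAACA, to the E-box CACGTG and to the C/EBP-ATF motif TGATGNAA. Neighbouring GC boxes can overlap.
IGFBP5, chr2:216695500-216695799, minus strand: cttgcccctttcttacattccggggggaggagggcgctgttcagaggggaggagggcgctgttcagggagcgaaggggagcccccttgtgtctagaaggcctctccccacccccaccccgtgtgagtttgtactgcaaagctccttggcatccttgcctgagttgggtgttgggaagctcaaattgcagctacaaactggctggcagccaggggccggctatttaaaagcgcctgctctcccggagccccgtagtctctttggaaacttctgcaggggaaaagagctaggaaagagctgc
IGFBP4, chr17:40443200-40443499, plus strand: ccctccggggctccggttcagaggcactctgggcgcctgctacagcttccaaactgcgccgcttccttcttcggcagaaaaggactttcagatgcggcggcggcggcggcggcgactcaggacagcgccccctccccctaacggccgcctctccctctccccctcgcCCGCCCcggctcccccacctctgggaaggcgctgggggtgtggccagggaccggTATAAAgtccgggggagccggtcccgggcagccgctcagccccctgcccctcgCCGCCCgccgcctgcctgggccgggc
IGFBP6, chr12:53097417-53097716, plus strand: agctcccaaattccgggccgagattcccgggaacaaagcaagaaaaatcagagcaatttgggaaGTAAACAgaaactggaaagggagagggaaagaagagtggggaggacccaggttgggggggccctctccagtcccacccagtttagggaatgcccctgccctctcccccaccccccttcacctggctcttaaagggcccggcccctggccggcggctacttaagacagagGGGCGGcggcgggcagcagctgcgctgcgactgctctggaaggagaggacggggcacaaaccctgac
IRS2, chr13:109786534-109786833, minus strand: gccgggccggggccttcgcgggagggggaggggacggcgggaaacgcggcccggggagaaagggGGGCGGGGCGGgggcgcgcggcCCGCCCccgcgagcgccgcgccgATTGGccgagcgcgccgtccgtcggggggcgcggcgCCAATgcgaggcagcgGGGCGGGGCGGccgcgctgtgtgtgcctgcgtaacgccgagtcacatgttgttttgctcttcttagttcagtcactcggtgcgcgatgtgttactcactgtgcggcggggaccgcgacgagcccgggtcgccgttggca
The IGFBP5 window held none of the 6 motifs, at a GC content of 59.0%. In the IGFBP4 window, with a GC content of 74.0%, TATAAA began at position -29 from the start and GC boxes at -83 and 25. The IGFBP6 window held GTAAACA at -186 and a GC box at -17. The IRS2 window held 5 GC boxes and 2 CCAAT matches, at a GC content of 75.7%. Over all 35116 windows of this length, GGGCGG was found in 45.0%, CCAAT in 34.6%, TATAAA in 11.5%, CACGTG in 7.26%, TGATGNAA in 3.62% and GTAAACA in 3.42%, and the median GC content was 58.7%. Of the 11 windows of these genes, 9 held GGGCGG, 2 CCAAT, 1 TATAAA, 1 CACGTG, 1 GTAAACA and 0 TGATGNAA. A match is only a match of letters.

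In PC3 the drug moved the binding proteins apart. Against DMSO, IGFBP5 and IGFBP4 and the adaptor IRS1 were lower at both times and IGFBP6 was higher at both times. IGFBP2, IGFBP3 and IRS2 were higher than with DMSO at 48 h, and IGFBP3 was lower at 24 h. With median centring in place of quantile normalisation, both IGFBP3 calls, that of IGFBP6 at 24 h and that of IGFBP2 at 48 h were lost. In LNCaP, IGFBP4, IGFBP6 and IRS1 were not well above background on any of 12 arrays. There IGFBP3 and IRS2 were higher than with DMSO at 48 h, and the INSR probe passed the test at 24 h. IGF1R was not well above background on any of the 24 arrays of either line. Levels are normalised log2 intensities of 1 probe, in replicate order, and cannot be set against those of another gene. A gene is called where its brightest kept probe (the leading probe) has an adjusted p under 0.05, written padj, by limma with Benjamini-Hochberg adjustment over all 25215 probes. Fold changes are on the log2 scale with limma's standard error.

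Counted per gene, 1 of 9 tested genes was higher and 4 were lower with Siomycin A in PC3 at 24 h, where 7.29% of all probes were higher and 7.75% lower. The PC3 counts at 48 h were 4 of 9 higher and 3 lower, against 16.5% and 19.1% of all probes. In LNCaP at 24 h 1 of 9 was higher and 0 lower, against 7.06% and 7.0% of all probes. In LNCaP at 48 h 2 of 9 were higher and 0 lower, against 14.4% and 14.0%. The LNCaP counts and medians include genes in which a change could hardly be measured there. IGFBP4, IGFBP6 and IRS1 were above background on 0 of 12 LNCaP arrays, IGFBP5 on 1 and INSR on 2. Before adjustment, 2 genes had a p under 0.05 in LNCaP at 24 h, INSR and, in the lower direction, IGFBP5, and 2 had at 48 h, both higher. The median log2 fold change of the 9 genes was -0.07 in PC3 at 24 h, 0.51 in PC3 at 48 h, 0.04 in LNCaP at 24 h and 0.16 in LNCaP at 48 h, beside medians over all probes of 0.00, 0.00, 0.02 and 0.01. The calls depend on the scaling. With median centring in place of quantile normalisation, fewer probes were called in all 4 Siomycin comparisons, and in PC3 at 48 h the balance of directions changed. In PC3 at 48 h 1367 probes were then higher and 6187 lower, against 4161 and 4826, and the median over all probes was -0.12. Of the 9 genes, 2 were then higher (IGFBP6 and IRS2) and 3 lower (IGFBP4, IGFBP5 and IRS1). In PC3 at 24 h that scaling gave 0 higher and 3 lower.

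**Figure D1:**
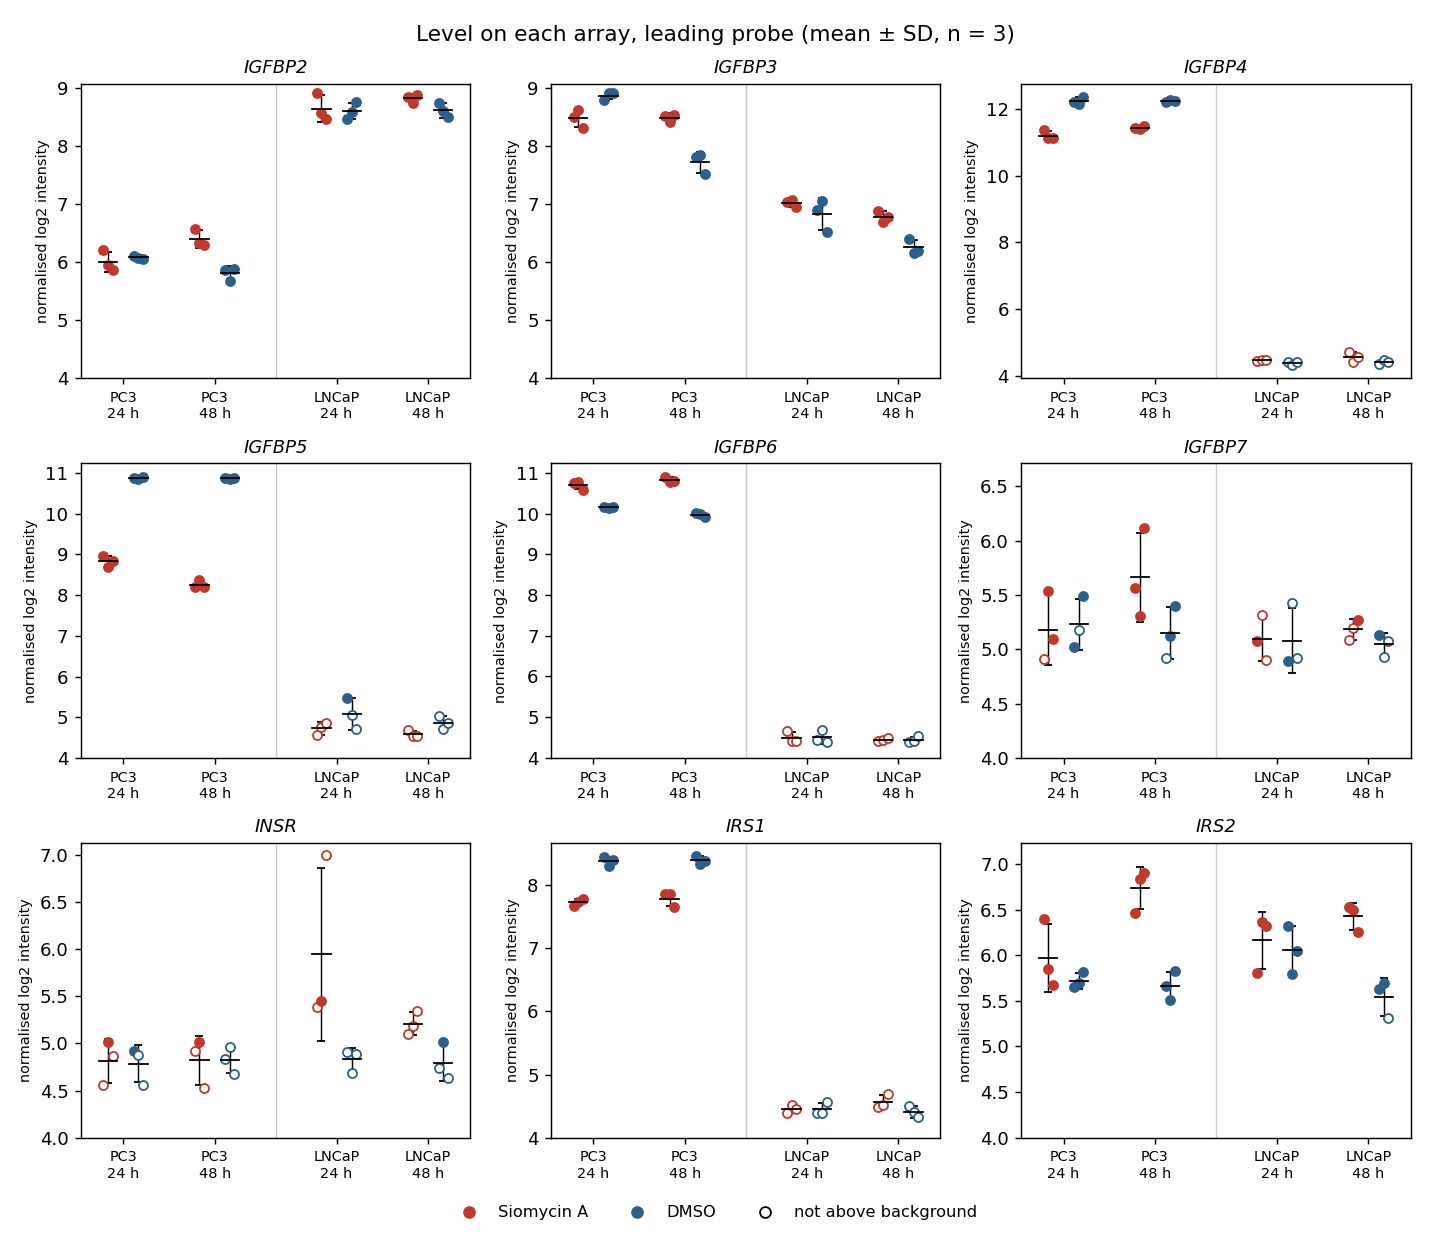
Normalised log2 intensity of the leading probe of each of the 9 tested genes on each array, by line, time and treatment, with the group mean and SD (n = 3). Open points were not above background. IGFBP4, IGFBP6 and IRS1 have filled points in PC3 alone, and the axes differ between genes.

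IGFBP5, a binding protein that also attaches to extracellular matrix, had the largest fitted change of the 9 genes in PC3. Its level was 8.96, 8.69 and 8.84 on the 3 Siomycin arrays at 24 h, against 10.88, 10.85 and 10.92 on the DMSO arrays. At 48 h it was 8.21, 8.37 and 8.20 with Siomycin, against 10.88, 10.86 and 10.87 with DMSO. The DMSO arrays lay within 0.1 of each other at both times, and every Siomycin array was far below them. The log2 fold change was -2.05 ± 0.14 at 24 h (padj = 4.7e-09, limma), a level 4.15-fold lower, and -2.61 ± 0.14 at 48 h (padj = 1.6e-11), 6.10-fold lower. The other probe of IGFBP5 gave -2.12 ± 0.11 and -2.62 ± 0.11 (padj = 3.5e-11 and 2.7e-13). For a deeper fall at 48 h the 2 probes gave close values, on either side of the threshold. The difference of the effects was -0.56 with padj = 0.06 for the leading probe and -0.51 with padj = 0.023 for the other. Under some alternatives the leading probe passed too, as with median centring (-0.933, padj = 0.018), but not under most.

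In LNCaP the leading IGFBP5 probe was above background on 1 of 12 arrays, a DMSO array at 24 h, with levels from 4.53 to 5.48. The other probe was above background on 0 of 12. The leading probe's fitted change was -0.35 at 24 h (padj = 0.11) and -0.28 at 48 h (padj = 0.16). At levels this close to background, a change in LNCaP could not be measured. The Siomycin effect in PC3 minus that in LNCaP was -1.70 at 24 h (padj = 1.3e-05) and -2.33 at 48 h (padj = 2e-08), fitted values that include a line below background.

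IGFBP4, a binding protein cleaved by the protease PAPPA, fell in PC3 at both times. Its level was 11.36, 11.13 and 11.12 with Siomycin at 24 h, against 12.21, 12.15 and 12.36 with DMSO. At 48 h it was 11.42, 11.42 and 11.48 with Siomycin, against 12.20, 12.28 and 12.24 with DMSO. The groups did not overlap at either time. IGFBP4 changed by a log2 fold change of -1.04 ± 0.09 at 24 h (padj = 7e-08), 2.05-fold lower, and -0.80 ± 0.09 at 48 h (padj = 3.6e-07), 1.74-fold lower. The difference between the times was 0.24, with a 95% interval of -0.02 to 0.50 and padj = 0.22. In LNCaP all 12 levels lay between 4.34 and 4.71 and none was above background.

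IGFBP6, a binding protein that prefers IGF2 over IGF1, went the other way in PC3. Its level was 10.76, 10.78 and 10.58 with Siomycin at 24 h, against 10.17, 10.14 and 10.15 with DMSO. At 48 h it was 10.90, 10.79 and 10.79 with Siomycin, against 10.01, 9.99 and 9.92 with DMSO. All Siomycin arrays were above all DMSO arrays at each time. The log2 fold change was 0.55 ± 0.09 at 24 h (padj = 0.0003), 1.46-fold higher, and 0.85 ± 0.09 at 48 h (padj = 3.3e-07), 1.81-fold higher. With median centring the 24 h call was lost (padj = 0.062). In LNCaP the 12 levels lay between 4.38 and 4.69, none above background.

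IGFBP3, the main carrier of IGFs in serum and also known as a growth inhibitor in its own right, turned in direction between the times in PC3. Its level at 24 h was 8.49, 8.61 and 8.31 with Siomycin, against 8.79, 8.90 and 8.90 with DMSO. At 48 h the level was 8.52, 8.40 and 8.54 with Siomycin, against 7.80, 7.83 and 7.51 with DMSO. The Siomycin means were 8.47 at 24 h and 8.49 at 48 h, whereas the DMSO means were 8.87 and 7.72. DMSO at 48 h against DMSO at 24 h gave -1.15 ± 0.12 (padj = 8.7e-07), 2.22-fold lower at 48 h. The Siomycin effect was -0.39 ± 0.12 at 24 h (padj = 0.034) and 0.77 ± 0.12 at 48 h (padj = 3.9e-05, 1.71-fold higher), with a difference of 1.17 ± 0.17 (padj = 7e-05). Both effects and their difference share DMSO arrays.

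The fall of IGFBP3 at 24 h is the least secure of these calls. The second IGFBP3 probe gave -0.18 ± 0.17 (padj = 0.6), with overlapping groups, and the call was lost under 9 of 36 alternatives, 5 of which left out a single array of the 6. At 48 h the second probe gave 0.70 ± 0.17 (padj = 0.0029). The 48 h call was lost with median centring alone, which gave 0.333 (padj = 0.16), or 0.45 relative to the median of all probes.

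In LNCaP the level of IGFBP3 was 7.02, 7.07 and 6.94 with Siomycin at 24 h, against 6.89, 7.06 and 6.52 with DMSO. At 48 h it was 6.88, 6.69 and 6.77 with Siomycin, against 6.40, 6.16 and 6.20 with DMSO. The groups overlapped at 24 h and were apart at 48 h. The log2 fold change was 0.19 ± 0.12 at 24 h (padj = 0.37) and 0.53 ± 0.12 at 48 h (padj = 0.0023, 1.44-fold higher), and the second probe gave 0.59 ± 0.17 at 48 h (padj = 0.014). DMSO at 48 h against DMSO at 24 h gave -0.57 ± 0.12 in LNCaP, which did not pass (padj = 0.066). The Siomycin means of IGFBP3 in LNCaP were 7.01 at 24 h and 6.78 at 48 h. The effect in PC3 minus that in LNCaP was -0.58 ± 0.17 at 24 h (padj = 0.04) and 0.24 ± 0.17 at 48 h (padj = 0.33, 95% interval -0.12 to 0.60). The call of the 24 h difference was lost under 13 of 35 alternatives, most of which left out a single 24 h array. Leaving out a 48 h array cannot move that difference itself, only its adjusted p, through the spread shared by all groups.

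**Figure D2:**
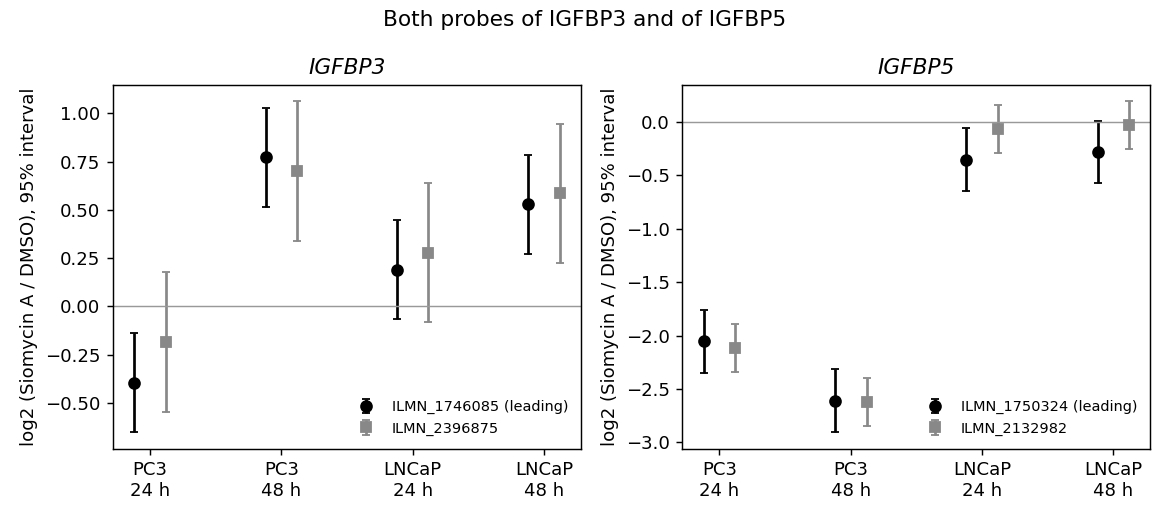
Log2 fold change of Siomycin A over DMSO with its 95% interval for both kept probes of IGFBP3 and of IGFBP5, by line and time. The 2 probes of IGFBP5 give close values in PC3, and the second IGFBP3 probe has an interval that includes 0 in PC3 at 24 h.

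IGFBP2, a binding protein often raised in prostate tumours, was the member with the higher level in LNCaP. In PC3 at 24 h its level was 6.20, 5.95 and 5.87 with Siomycin, against 6.11, 6.08 and 6.06 with DMSO. The level in PC3 at 48 h was 6.57, 6.32 and 6.30 with Siomycin, against 5.87, 5.67 and 5.88 with DMSO. The groups overlapped at 24 h and were apart at 48 h. Siomycin gave a log2 fold change of -0.07 ± 0.12 at 24 h (padj = 0.8) and 0.59 ± 0.12 at 48 h (padj = 0.00058, 1.51-fold higher). The difference of the effects was 0.66 ± 0.17 (padj = 0.0095). DMSO at 48 h against DMSO at 24 h gave -0.27 ± 0.12 for IGFBP2 in PC3, which did not pass (padj = 0.13). With median centring the 48 h value was 0.273 and not called (padj = 0.27), or 0.39 relative to the median of all probes. In LNCaP all 12 levels of IGFBP2 lay between 8.46 and 8.91, and the Siomycin effect was 0.04 at 24 h and 0.21 at 48 h (padj = 0.88 and 0.23).

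IGFBP2 and IGFBP5 are neighbouring protein-coding genes on chromosome 2 in RefSeq. In PC3 at 48 h, IGFBP2 was higher than with DMSO while IGFBP5 was lower. The IGFBP2 call was lost with median centring (0.273, padj = 0.27). With DMSO, IGFBP5 was higher in PC3 and IGFBP2 was higher in LNCaP.

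IGFBP7 stayed near background, with levels from 4.91 to 6.11 in PC3, where 9 of 12 arrays were above background, and from 4.89 to 5.42 in LNCaP, where 4 of 12 were. In PC3 at 48 h the Siomycin effect was 0.51 ± 0.20, which did not pass (padj = 0.053). In the other 3 Siomycin comparisons it lay between -0.05 and 0.14.

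The IGF1R probe gave intensities from 82.13 to 119.3 over the 24 arrays and was not well above background on any of them, so it was not tested. INSR was above background on 3 of 12 PC3 arrays and on 2 of 12 LNCaP arrays. In LNCaP at 24 h its level was 5.39, 5.45 and 7.00 with Siomycin, against 4.91, 4.69 and 4.89 with DMSO. The third Siomycin array stood well apart from the other 2, yet it was not among those above background, since its detection p was 0.0418. Only the second Siomycin array was above background, and none of the DMSO arrays. The test passed (padj = 0.0089), with a fitted log2 change of 1.115 that rests largely on the third array. Without that array it was 0.587 (padj = 0.022). The first Siomycin array was not above background either, so no fold is given. In a fit on LNCaP arrays alone the call was lost (padj = 0.061). At 48 h in LNCaP the INSR effect was 0.41 ± 0.28 (padj = 0.32), and in PC3 it was 0.03 at 24 h and 0.00 at 48 h.

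IRS1, an adaptor of both receptors, fell in PC3. Its level was 7.67, 7.72 and 7.79 with Siomycin at 24 h, against 8.44, 8.29 and 8.39 with DMSO. At 48 h it was 7.85, 7.85 and 7.65 with Siomycin, against 8.45, 8.33 and 8.39 with DMSO. No Siomycin array reached the lowest DMSO array at either time. Its log2 fold change was -0.65 ± 0.09 at 24 h (padj = 2.9e-05), 1.57-fold lower, and -0.60 ± 0.09 at 48 h (padj = 1.3e-05), 1.52-fold lower. With median centring the 48 h value was -1.031, or -0.914 relative to the median of all probes. In LNCaP the IRS1 levels lay between 4.32 and 4.70 and none of 12 was above background.

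IRS2, the related adaptor, was higher than with DMSO at 48 h in both lines. In PC3 at 24 h its level was 6.39, 5.85 and 5.68 with Siomycin, against 5.65, 5.69 and 5.82 with DMSO. Its PC3 level at 48 h was 6.47, 6.84 and 6.90 with Siomycin, against 5.66, 5.51 and 5.82 with DMSO. At 24 h the first Siomycin array was high, the second lay just above the highest DMSO array and the third lay among the DMSO values, whereas at 48 h all Siomycin arrays were higher. The log2 fold change was 0.25 ± 0.19 at 24 h (padj = 0.47) and 1.07 ± 0.19 at 48 h (padj = 0.00011, 2.10-fold higher). In LNCaP at 24 h the level was 5.81, 6.36 and 6.32 with Siomycin, against 6.32, 5.79 and 6.04 with DMSO. In LNCaP at 48 h it was 6.53, 6.50 and 6.25 with Siomycin, against 5.62, 5.70 and 5.31 with DMSO, the last of which was not above background. The LNCaP groups overlapped at 24 h and not at 48 h. The effect there was 0.11 ± 0.19 at 24 h (padj = 0.79) and 0.88 ± 0.19 at 48 h (padj = 0.0011, 1.84-fold higher). DMSO at 48 h against DMSO at 24 h gave -0.51 ± 0.19 for IRS2 in LNCaP, which did not pass (padj = 0.37). The Siomycin means of IRS2 in LNCaP were 6.16 at 24 h and 6.42 at 48 h.

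At 48 h the IRS2 effect in PC3 minus that in LNCaP was 0.19, with a 95% interval of -0.36 to 0.74 (padj = 0.64). The IRS2 effect at 48 h minus that at 24 h was 0.82 ± 0.26 in PC3 (padj = 0.037) and 0.77 ± 0.26 in LNCaP (padj = 0.11). The PC3 call was lost under 13 of 35 alternatives, most of which left out a single PC3 array. Leaving out an LNCaP array cannot move the PC3 difference itself, only its adjusted p, through the spread shared by all groups. Without background correction the 48 h effects of IRS2 were 0.476 in PC3 and 0.358 in LNCaP, both still called. In PC3 at 48 h, then, IRS1 was lower and IRS2 higher with Siomycin.

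**Figure D3:**
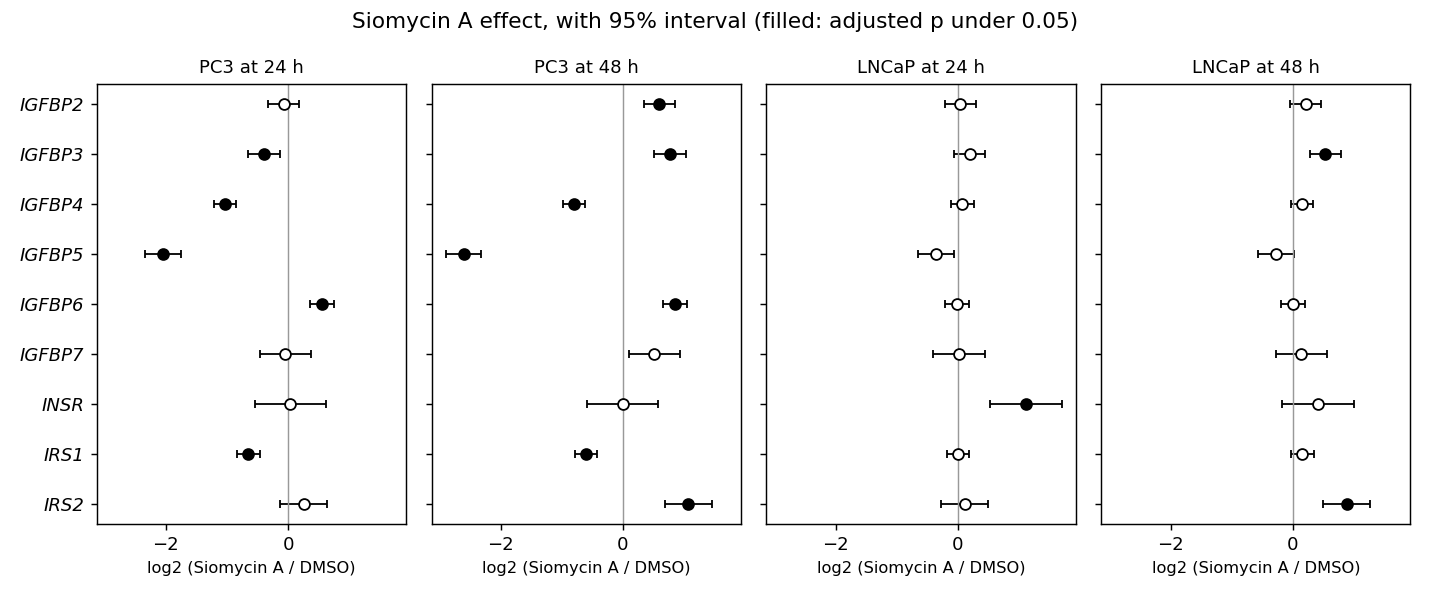
Log2 fold change of Siomycin A over DMSO with its 95% interval for the leading probe of the 9 tested genes, by line and time. Filled points have an adjusted p under 0.05: 5 genes in PC3 at 24 h, 7 in PC3 at 48 h, 1 in LNCaP at 24 h and 2 in LNCaP at 48 h.

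The 4 Siomycin comparisons were then set against each other with tests of the difference. In PC3 the effect at 48 h differed from that at 24 h for 3 of 9 genes, IGFBP2, IGFBP3 and IRS2, where 17.6% of all probes differed. In LNCaP it differed for 0 of 9 genes in limma, with 1 gene, IRS2, at an unadjusted p under 0.05, where 5.16% of all probes differed. Between the lines at 24 h, 5 of 9 genes differed (IGFBP3, IGFBP4, IGFBP5, IGFBP6 and IRS1), against 8.52% of all probes. At 48 h 4 of 9 differed (IGFBP4, IGFBP5, IGFBP6 and IRS1), against 32.5% of all probes. In LNCaP IGFBP4, IGFBP6 and IRS1 were above background on no array and IGFBP5 on 1 of 12, so for these 4 genes any change in PC3 appears as a difference between the lines, and nothing is read from their count. Of the called differences, that of IGFBP3 at 24 h alone was between effects measured above background in both lines, and the second IGFBP3 probe gave -0.46 (padj = 0.31). The difference was -1.11 for IGFBP4, 0.57 for IGFBP6 and -0.65 for IRS1 at 24 h, and -0.95 for IGFBP4, 0.85 for IGFBP6 and -0.76 for IRS1 at 48 h.

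With DMSO the lines differed in 6 of 9 genes at each time, where 49.9% of all probes differed at 24 h and 51.6% at 48 h. In LNCaP IGFBP4, IGFBP6 and IRS1 were above background on 0 of 12 arrays and IGFBP5 on 1 of 12. These genes thus passed the filter through their PC3 arrays, so nothing is read from their calls between the lines. IGFBP4 was at least 177-fold higher in PC3 than in LNCaP at 24 h and at least 175-fold higher at 48 h. The IGFBP6 level was at least 41.7-fold higher in PC3 at 24 h and at least 36.4-fold at 48 h. IRS1 was at least 12.1-fold and 12.2-fold higher in PC3. For the leading IGFBP5 probe PC3 was at least 62.7-fold higher at 48 h. At 24 h, where 1 of 3 LNCaP arrays was above background, the fitted difference was 5.80, and the other probe, with 0 of 3, was at least 56.0-fold higher in PC3. Each bound sets the PC3 mean against the lowest signal above background on the LNCaP arrays, or the probe's own signal where that was higher. IGFBP3 was higher in PC3 by 2.05 ± 0.12 at 24 h and 1.46 ± 0.12 at 48 h. IGFBP2 was lower in PC3, by log2 differences of -2.52 ± 0.12 at 24 h and -2.80 ± 0.12 at 48 h. IRS2, IGFBP7 and INSR did not pass at either time.

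Over time in DMSO, 1 of 9 genes changed in PC3, IGFBP3, where 20.0% of all probes did. IGFBP2 also had an unadjusted p under 0.05 there, at -0.27 ± 0.12 (padj = 0.13). In LNCaP 0 of 9 changed in limma, with IGFBP3 and IRS2 (2 genes) at an unadjusted p under 0.05, where 0.202% of all probes did. IGFBP5, IGFBP4 and IRS1 were steady in PC3 DMSO cultures, with 48 h minus 24 h differences of -0.01, 0.00 and 0.02.

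Ordered by group mean, IGFBP5 was highest in both PC3 DMSO groups, at 10.88 ± 0.03 at 24 h and 10.87 ± 0.01 at 48 h (SD, n = 3 each), then in PC3 with Siomycin at 24 h, at 8.83 ± 0.14, and at 48 h, at 8.26 ± 0.09, above all LNCaP groups. For IGFBP4 and IRS1 too, the PC3 DMSO groups were highest, the PC3 Siomycin groups came next and the LNCaP groups last. IGFBP6 had the reverse order of treatments in PC3, with 10.83 ± 0.07 with Siomycin at 48 h, 10.71 ± 0.11 with Siomycin at 24 h, 10.16 ± 0.01 with DMSO at 24 h and 9.97 ± 0.05 with DMSO at 48 h. For these 4 genes no difference between the PC3 DMSO groups of the 2 times passed in limma.

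The genes whose levels ran most like each member's were found by Pearson's r over the 24 arrays after each line's mean was subtracted, which leaves arrays of a group sharing a treatment, so r is a description. For IGFBP5 they were ABCA13 (r = 0.97), PHACTR3 (0.961) and HSD17B2 (0.953). The IGFBP4 list was IL1B (0.932), TNFRSF6B (0.928) and ABCA13 (0.919), and that of IRS1 was ADGRF1 (0.93), LOXL4 (0.924) and ABCA13 (0.92), so that ABCA13 was among the top 3 for IGFBP5, IGFBP4 and IRS1. IGFBP6 ran with IL12A, LAMB3 and ANGPTL4 (0.951 each). In LNCaP IGFBP5 was above background on 1 of 12 arrays and IGFBP4, IRS1 and IGFBP6 on 0. The r of these genes therefore rests largely on the PC3 arrays. IGFBP3 ran with TUBB3 (0.906), ID3 (0.868) and ACTB (0.833). IRS2 ran with PROSER2 (0.862), DEPP1 and TUFT1 (0.846 each). For IGFBP2 the closest was CNBP (0.84), and for IGFBP7 and INSR no gene passed 0.8.

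Around these genes, the rest of the pathway was described from 4 lists. Their counts are to be read against the shares of all probes called: 7.29% higher and 7.75% lower in PC3 at 24 h, 16.5% and 19.1% in PC3 at 48 h, 7.06% and 7.0% in LNCaP at 24 h, and 14.4% and 14.0% in LNCaP at 48 h. Of 14 other ligands, receptors and carriers, 13 were tested, and IGF1 had no kept probe. In this list 1 was higher and 1 lower in PC3 at 24 h, 2 and 1 in PC3 at 48 h, 0 and 1 in LNCaP at 24 h, and 2 and 0 in LNCaP at 48 h. IGF2R, which carries IGF2 to the lysosome, was higher with Siomycin in PC3 at 24 h by 0.39 ± 0.09 (padj = 0.0046). CCN1, a matrix protein with an IGFBP-like domain, rose by 1.86 ± 0.15 in PC3 at 48 h (padj = 4.2e-09). In LNCaP at 24 h CCN1 was lower, at -0.51 ± 0.15 (padj = 0.024). The list's median was -0.02 in PC3 at 24 h, -0.01 in PC3 at 48 h, 0.09 in LNCaP at 24 h and -0.01 in LNCaP at 48 h.

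Of 14 proteases that cut IGFBPs and their inhibitors, 9 were tested. PAPPA, PAPPA2, ADAM28 and MMP7 had no kept probe, and 1 gene was not analysed here. In this list 2 were higher and 0 lower in PC3 at 24 h, 3 and 3 in PC3 at 48 h, 2 and 1 in LNCaP at 24 h, and 4 and 1 in LNCaP at 48 h, with list medians of 0.05, -0.16, 0.01 and 0.03. CTSD, the lysosomal protease cathepsin D, rose in all 4 comparisons, by 1.30, 1.32, 1.21 and 0.70 on the log2 scale in that order. For STC2, an inhibitor of PAPPA, the difference from DMSO turned direction in PC3, where its DMSO level also rose between the times, as given below. The STC2 effect was 0.47 ± 0.08 at 24 h (padj = 0.0004) and -1.25 ± 0.08 at 48 h (padj = 2.6e-10), and the difference of -1.72 passed (padj = 4.6e-09). In LNCaP STC2 rose by 1.44 ± 0.08 at 24 h and 1.88 ± 0.08 at 48 h. KLK2, a kallikrein that cuts IGFBPs, fell in LNCaP, by 0.86 ± 0.16 at 24 h and 0.48 ± 0.16 at 48 h on the log2 scale (padj = 0.00058 and 0.025).

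Of 21 adaptors, phosphatases and phosphoinositide kinase subunits, 17 were tested. IRS4 had no kept probe, and 3 genes were not analysed here. Here 4 were higher and 0 lower in PC3 at 24 h, 2 and 3 in PC3 at 48 h, 2 and 0 in LNCaP at 24 h, and 3 and 1 in LNCaP at 48 h, with medians of 0.16, 0.19, 0.12 and 0.09. SHC1, an adaptor that links the receptors to RAS, rose in all 4 comparisons, by 0.76, 0.76, 0.73 and 0.51. GRB10, an adaptor that dampens INSR and IGF1R signalling, was higher by 0.27 ± 0.09 in PC3 at 24 h (padj = 0.041). At 48 h in PC3 GRB10 was lower, at -0.91 ± 0.09 (padj = 6.5e-08), and the difference of -1.18 passed (padj = 1.2e-06). In LNCaP GRB10 rose by 0.66 ± 0.09 at 24 h and 0.47 ± 0.09 at 48 h.

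Of 24 genes of AKT, mTOR and FOXO control, 20 were tested. AKT2, RICTOR and GSK3A had no kept probe, and 1 gene was not analysed here. In PC3 at 24 h 4 were higher and 1 lower, and at 48 h 6 were higher and 9 lower. In LNCaP 6 were higher and 0 lower at 24 h, and 9 were higher and 0 lower at 48 h. With median centring, chosen for these lists after seeing the data, the counts in this list were 3 higher and 0 lower in PC3 at 24 h, 3 and 11 in PC3 at 48 h, 6 and 0 in LNCaP at 24 h, and 7 and 0 in LNCaP at 48 h. In PC3 at 48 h the other 3 lists then had 1 higher and 2 lower for the ligands, receptors and carriers, 2 and 4 for the proteases, and 2 and 4 for the adaptors. That scaling also ended the calls of IGF2R, STC2 and GRB10 in PC3 at 24 h, of CCN1 in LNCaP at 24 h, of SHC1 and GRB10 in LNCaP at 48 h and of DDIT4 in PC3 at 48 h. With quantile normalisation the medians were 0.15 and -0.30 in PC3 at 24 h and 48 h, and 0.17 and 0.26 in LNCaP. In these 4 lists 3 calls set a group against one with no array above background (KLK3 and SOCS1 in PC3 at 48 h, PIK3R3 in LNCaP at 48 h), and they have no fold given.

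GSK3B, a kinase that AKT inhibits, rose by 0.81 ± 0.07 in PC3 at 48 h (padj = 2.8e-08). FOXO3, a FOXO factor, rose by 0.77 ± 0.14 in PC3 at 48 h, 0.79 ± 0.14 in LNCaP at 24 h and 0.93 ± 0.14 in LNCaP at 48 h. RPS6KB1, the S6 kinase below mTOR, fell by 0.97 ± 0.11 in PC3 at 48 h (padj = 6.7e-07). DDIT4, a stress-induced inhibitor of mTOR, rose by 2.26 ± 0.10 in PC3 at 24 h and by 0.44 ± 0.10 at 48 h, and in LNCaP by 1.77 ± 0.10 and 1.89 ± 0.10. TRIB3, a stress-induced pseudokinase that binds AKT, was higher than with DMSO by 1.09 ± 0.09 in PC3 at 24 h and lower than with DMSO by 1.15 ± 0.09 at 48 h. In LNCaP TRIB3 rose by 1.98 ± 0.09 and 2.22 ± 0.09. For DDIT4, TRIB3, STC2 and GRB10 the PC3 DMSO cultures also differed between the times, but upward, where IGFBP3 fell. DMSO at 48 h against DMSO at 24 h gave 3.75 ± 0.10 for DDIT4, 3.38 ± 0.09 for TRIB3, 1.47 ± 0.08 for STC2 and 0.72 ± 0.09 for GRB10 (padj = 7e-16, 7e-16, 1.1e-10 and 4.4e-06). The part of these DMSO differences in the Siomycin effects at 48 h was not tested.

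**Figure D4:**
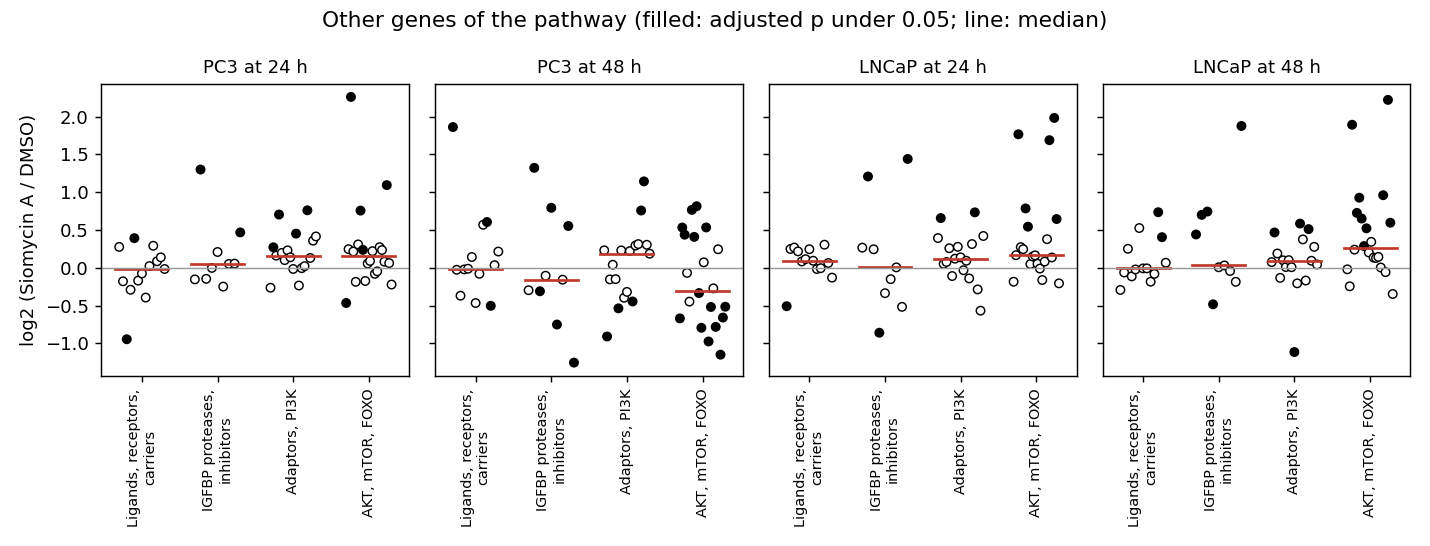
Log2 fold change of Siomycin A over DMSO for the tested genes of the 4 pathway lists, by line and time, with the median of each list as a line. Filled points have an adjusted p under 0.05: in the AKT, mTOR and FOXO list 6 genes are higher and 9 lower in PC3 at 48 h, while in LNCaP at 48 h 9 are higher and 0 lower.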

How the data were processed

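Total RNA of PC3 and LNCaP cells was hybridised to Illumina bead arrays. Per the file headers, the deposited scanner files give a linear intensity and a detection p-value per probe, for 47318 probes and 24 arrays. The authors' processed table holds log2 values. Per the submitters' processing notes lumi was used, with no version or settings given in the sources used here. The table equals log2 intensities that were quantile normalised without background correction (largest difference 5.12e-09) and has column medians of 6.91. Columns were assigned to samples by name, and 0 value columns lacked a sample. The probes' genome build was not given in the sources used here, so probe coordinates are not printed.

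Since detection p-values were low below background as well as above it, limma's neqc was adapted: each array's background was centred on the median signal over probes whose detection p exceeded 0.9, with an SD from the dimmer probes, and normexp with offset 16, log2 and quantile normalisation followed. The offset understates changes of dim probes. Above background means a detection p under 0.01 together with a signal over that centre. Probes above background on 3 or more arrays were kept. Of the probes, 30111 had 1 gene symbol in the platform annotation and 8 had several; the others were unnamed here. Promoters came from RefSeq on GRCh38.p14, and none is shown where the table has no entry.

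Differences were tested with limma 3.58.1 in R 4.3.3 (lmFit and eBayes on 8 group means, 16 residual and 3.5 prior degrees of freedom), two-sided, with Benjamini-Hochberg adjustment over the 25215 kept probes of a contrast and calls at adjusted p under 0.05. A gene was read from its kept probe with the highest mean. The fitting was tested on simulated data. Precision is limited by having 3 arrays a group. The alternatives were other background corrections, offsets, normalisations, probe filters and probe summaries, the authors' table, arrays of 1 line alone, a replicate block and leaving out each array. Same-numbered Siomycin and DMSO arrays correlated between -0.126 and 0.024 after removing group means, so numbers did not pair them.

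The member genes and pathway lists were chosen with earlier results of these data known. Every member is accounted for. Per-array values are given for each member called in at least 1 Siomycin comparison and ranges for the others, and in each pathway list up to 2 genes with the largest rise and 2 with the largest fall past the threshold in a comparison may be named, as may any gene that a member is known to bind or be cut by.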

Additional observations from a re-analysis of the deposited data

Results flagged for a closer look

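The Siomycin effect on 3 genes differed between the times in PC3 by the limma test of the difference itself. At 48 h minus 24 h the difference was 0.66 for IGFBP2, 0.82 for IRS2 and 1.17 for IGFBP3, on the log2 scale.

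Between the lines, the effect in PC3 minus that in LNCaP at 24 h was -0.65 for IRS1, -1.70 for IGFBP5, -0.58 for IGFBP3, 0.57 for IGFBP6 and -1.11 for IGFBP4, each past the threshold. At 48 h the same difference was -0.76 for IRS1, -2.33 for IGFBP5, 0.85 for IGFBP6 and -0.95 for IGFBP4. In LNCaP, IRS1, IGFBP4 and IGFBP6 were above background on 0 of 12 arrays and IGFBP5 on 1 of 12. No group had over 3 arrays, so single arrays within a group were not tested for standing apart.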

How the results depend on the processing

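Of 40 called effects of these genes, 29 were called in every alternative tried. Over 1378 alternative values of the called effects, 1333 kept call and direction, 45 lost the call and 0 reversed. Many of these values left out an array outside the comparison, which cannot move its fold change. The called effects also include the large differences between the lines with DMSO, called in every alternative. These counts therefore do not measure how secure a call is. With median centring the count of called genes was 3 in place of 5 in PC3 at 24 h, 5 in place of 7 in PC3 at 48 h and 2 in place of 5 for the difference between the lines at 24 h. For that last difference 437 of all probes were then higher and 320 lower, against 1108 and 1040. Only IGFBP2 and IGFBP3 were above background on all 24 arrays, and with the filter set there the counts over these 2 genes were 1 in PC3 at 24 h, 2 in PC3 at 48 h, 0 in LNCaP at 24 h, 1 in LNCaP at 48 h, 1 and 0 for the difference between the lines at 24 h and 48 h, 1 for DMSO over time in LNCaP, and 2 for PC3 DMSO against LNCaP DMSO at each time. On LNCaP arrays alone the LNCaP 24 h count was 0 in place of 1. With an offset of 50 the count for the difference between times in PC3 was 5 in place of 3. With 1 probe per gene, or the mean of kept probes, DMSO over time in LNCaP gave 1 in place of 0, IGFBP3. Leaving out single arrays gave 1 to 2 genes in LNCaP at 24 h, with 2 only without LNCaP DMSO 24 h replicate 3, where IGFBP5 passed (-0.54, padj = 0.0078), and 0 to 1 for DMSO over time in LNCaP. It gave 2 to 4 for the difference between times in PC3, 4 to 5 in PC3 at 24 h, 7 to 8 in PC3 at 48 h and 2 to 3 in LNCaP at 48 h.

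The fall of IGFBP3 in PC3 at 24 h ran from -0.463 to -0.289 over its alternatives (adjusted p from 0.0032 to 0.19). IGFBP7 passed in PC3 at 48 h under 9 alternatives. Low signals lose fold without background correction, as IGFBP2 shows at 0.252 in PC3 at 48 h. With median centring the calls of the differences between the lines were lost for IRS1 at 24 h (padj = 0.18) and for IGFBP6 at 24 h and 48 h (padj = 0.27 and 0.052). The difference between times in PC3 was lost for IGFBP2 without background correction, in the authors' processed table (padj = 0.088 in both) and with median centring (padj = 0.45). Causes were not tested. With a replicate block the counts were 4 in PC3 at 24 h, 8 in PC3 at 48 h, 1 in LNCaP at 24 h and 2 in LNCaP at 48 h, and 1 of 12 Siomycin arrays correlated best with the DMSO array of its own number. Chosen after seeing the data, the removal of PC3 Siomycin 48 h replicate 3 together with LNCaP Siomycin 24 h replicate 1 left these counts at 5, 7, 1 and 2. The slide as a block was not run, as the headers give none.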
